A study of Mus musculus with 18 samples.

Results

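The comparison covers the second day of LPS culture of splenic B cells that lack functional Zbtb24. It sets 3 RNA-seq libraries taken at 48 h (labelled D2) against 3 taken at 24 h (D1), each trio labelled Zbtb24 B-CKO 1 to 3. Equal numbers are taken here as the same mouse, which the labels do not state for the time points. All genes above 0 FPKM in at least 1 of these 6 libraries were included, which were 15253 of the 16545 genes in the table, and none was chosen for how it changed. FPKM are sequenced fragments of a gene, scaled by the length of its transcript and by the depth of the library. The whole series holds 18 libraries, made from 3 B-CKO and 3 control (CON) mice at 0, 24 and 48 h. B-CKO mice carry Zbtb24 loxp/loxp and 1 copy of a Cre allele that is active in B lineage cells, so that exon 2 of Zbtb24, which holds the translation start, is removed in these cells. CON littermates carry the same Cre allele and Zbtb24 +/+, so Cre is present in both genotypes, and the mice are on the C57BL/6 background. Total splenic B cells were purified (above 95% after sorting), cultured in RPMI-1640 with serum and stimulated with LPS. LPS, a bacterial cell wall component, activates B cells through the receptor TLR4 and its homologue CD180. The LPS dose of these cultures and the age and sex of the mice are not given in the sources used here. In the study, these libraries were made to ask whether other ZBTB family members rise where Zbtb24 is lost. The study also reports genes of plasma cell differentiation and heme synthesis from RNA-seq of splenic B cells.

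After activation by LPS, a resting follicular or marginal zone B cell grows, builds ribosomes under the transcription factor MYC, replicates its DNA and then divides several times. Some of the dividing cells switch their antibody class, and some become plasmablasts. The factors BLIMP1 (gene Prdm1), XBP1 and IRF4 drive plasma cell (PC) fate, whereas PAX5, BACH2 and BCL6 hold the B cell state. Hypoxia-inducible factors (HIF) raise glycolytic genes when prolyl hydroxylases, which need oxygen, do not mark HIF-alpha for destruction.

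Between 24 h and 48 h, 3307 genes were higher (21.7% of those tested) and 3657 were lower (24%) in B-CKO cells, 6964 in all (45.7%), by limma on log2(FPKM + 1) with Benjamini-Hochberg adjusted p under 0.05. The median change over all tested genes was -0.002 on the log2 scale. Changes of at least 2-fold were fewer and mostly upward. They were 382 rises (2.50%) and 129 falls (0.846%). For 8125 genes (53.3%), the 3 libraries of 48 h did not overlap with the 3 of 24 h. Only 38 of the 6964 called genes overlapped, so a lack of overlap, where given below, adds little to a call. Without mouse 1 at both time points, 2127 genes were higher and 2021 lower. In a fit of the 9799 genes that averaged 1 FPKM or more, 2784 were higher and 3628 lower. These are larger shares than over all genes tested.

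The libraries of each time point resembled each other closely, with a lowest correlation of 0.994 between log values. The median SD between mice was 0.0541 at 24 h and 0.0847 at 48 h on the log2 scale, over 9799 genes that averaged 1 FPKM or more. The 48 h library of mouse 3 lay farthest from 24 h for 52.4% of the called genes, and that of mouse 2 lay nearest for 45.1%. Without the 48 h library of mouse 3, 3190 genes were higher and 3346 lower. Steps between low values, found in 62 of 2478 genes near 0 with a tolerance of 0.22 of a step, put the relative depth of the 6 libraries between 1.048 and 1.076. This estimate rests on few genes, and the number of reads itself is unknown. Zbtb24 was at 11.7, 10.4 and 10.6 FPKM at 24 h and 10.6, 9.23 and 11.3 FPKM at 48 h in B-CKO cells (log2 change -0.06 ± 0.08 (SE), adjusted p = 0.588) and the time points overlapped. In CON cells its mean was 17.6 FPKM at 24 h and 15.2 FPKM at 48 h. A value per gene does not separate the deleted exon 2 from the rest of the transcript.

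All 9 B cell markers reported here were above 1 FPKM in every library, and their sum was 4470 to 4610 FPKM at 24 h and 5560 to 6480 FPKM at 48 h. The 12 measured T cell markers summed to 31.0 to 35.1 FPKM at 24 h and to 61.8 to 85.6 FPKM at 48 h. Nearly all of this sum came from Cd2 and Lck, which B cells also express, while the CD3 chains Cd3d, Cd3e and Cd3g stayed under 1 FPKM. Of 18 myeloid markers, 8 were at 0 in all libraries of 24 h and 9 in all of 48 h, with sums of 6.73 to 7.12 and 8.33 to 10 FPKM. The 10 dendritic cell markers summed to 137.0 to 154.0 and 159.0 to 192.0 FPKM, and only Bst2, Cst3 and Flt3 reached 1 FPKM. NK cell markers summed to at most 1.5 FPKM, and erythroid and platelet markers to at most 16.7 FPKM. The part of these markers in the results was not tested. Here and below, more cells of a kind and more RNA per cell cannot be told apart, because the libraries are of bulk cells.

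The largest rise belonged to Slc16a3 (NCBI Gene 80879, chr11:120948484-120959000 on GRCm38), the gene of the lactate exporter MCT4. It was at 0.24, 0.29 and 0.69 FPKM at 24 h and 133, 126 and 123 FPKM at 48 h. Every 48 h library was thus over 100 FPKM while no 24 h library reached 1 FPKM, with a ratio of means of 313 (log2 change 6.53 ± 0.12 (SE), adjusted p = 1.12e-06). Ankrd37, a small ankyrin repeat gene known as a HIF target, was at 3.66, 3.48 and 8.15 FPKM at 24 h and 126, 119 and 137 FPKM at 48 h (log2 change 4.47 ± 0.26 (SE), adjusted p = 3.25e-05). Bnip3, a mitochondrial protein that drives mitophagy, was at 6.29, 6.20 and 7.35 FPKM at 24 h and 145, 129 and 125 FPKM at 48 h (log2 change 4.14 ± 0.08 (SE), adjusted p = 1.12e-06). Mouse 3 had the highest 24 h value for all 3 of these genes, but at 48 h it was highest for Ankrd37 alone. Mgarp, a mitochondrial protein induced by low oxygen, was at 0, 0.04 and 0.09 FPKM at 24 h and 13.8, 13.3 and 13.6 FPKM at 48 h and thus near 0 in each 24 h library (log2 change 3.80 ± 0.07 (SE), adjusted p = 1.12e-06). Egln3, a HIF prolyl hydroxylase that is itself a HIF target, was at 0.14, 0.12 and 0.08 FPKM at 24 h and 13.8, 14.8 and 14.04 FPKM at 48 h (log2 change 3.77 ± 0.07 (SE), adjusted p = 1.12e-06). The respiratory chain subunit Cox7a1 was at 0.6, 0.3 and 0.15 FPKM at 24 h and 24.6, 21.3 and 21.4 FPKM at 48 h (log2 change 4.13 ± 0.13 (SE), adjusted p = 5.92e-06). These low starting levels make the ratios large, and 60 of the 382 genes that rose at least 2-fold had a 24 h mean under 1 FPKM.

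**Figure D1:**
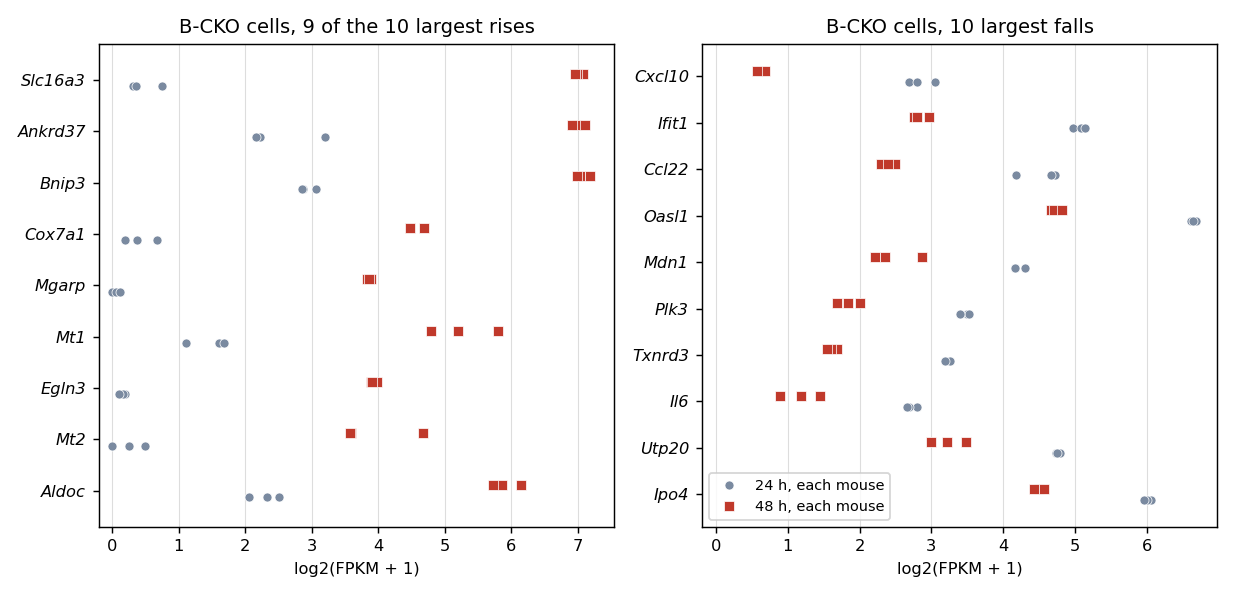
Level of 9 of the 10 genes with the largest rise (left) and of the 10 with the largest fall (right) in B-CKO cells, as log2(FPKM + 1), with circles for the 3 mice at 24 h and squares for the same mice at 48 h. The genes were picked among those whose 2 time points do not overlap, so the lack of overlap follows from the choice. Slc16a3 moves farthest, by 6.53.

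The promoters of 4 of the risen genes are shown because the letters ACGTG and GCGTG, the core that HIF binds, can be read in them. They come from RefSeq on GRCm38.p6 and run from 250 bases before to 50 bases after the annotated start, 5′ to 3′ on the strand of the gene. Capitals mark each ACGTG or GCGTG on either strand, and CACGTG, which reads ACGTG on both strands, counts as 2 matches. The windows are chr11:120948817-120949116 (plus strand) for Slc16a3, chr8:45999801-46000100 (minus) for Ankrd37, chr7:138909457-138909756 (minus) for Bnip3 and chrX:106186850-106187149 (plus) for Pgk1, a glycolytic enzyme described next.
Slc16a3: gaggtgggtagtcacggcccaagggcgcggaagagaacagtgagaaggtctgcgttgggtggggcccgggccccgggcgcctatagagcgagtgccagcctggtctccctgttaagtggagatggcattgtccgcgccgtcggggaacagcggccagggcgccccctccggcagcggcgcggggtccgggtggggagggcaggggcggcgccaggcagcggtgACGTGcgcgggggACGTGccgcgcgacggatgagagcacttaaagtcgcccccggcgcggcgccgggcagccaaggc
Ankrd37: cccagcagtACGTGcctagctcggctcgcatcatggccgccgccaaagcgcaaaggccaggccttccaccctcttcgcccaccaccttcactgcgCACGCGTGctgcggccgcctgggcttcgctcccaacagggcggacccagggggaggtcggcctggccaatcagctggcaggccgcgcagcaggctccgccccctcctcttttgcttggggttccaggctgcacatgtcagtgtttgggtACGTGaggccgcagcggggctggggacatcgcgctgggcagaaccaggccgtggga
Bnip3: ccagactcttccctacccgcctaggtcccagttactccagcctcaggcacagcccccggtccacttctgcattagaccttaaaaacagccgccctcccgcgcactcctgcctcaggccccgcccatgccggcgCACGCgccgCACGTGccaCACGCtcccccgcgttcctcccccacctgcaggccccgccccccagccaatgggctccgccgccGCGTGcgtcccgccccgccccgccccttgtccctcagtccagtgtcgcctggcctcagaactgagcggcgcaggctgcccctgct
Pgk1: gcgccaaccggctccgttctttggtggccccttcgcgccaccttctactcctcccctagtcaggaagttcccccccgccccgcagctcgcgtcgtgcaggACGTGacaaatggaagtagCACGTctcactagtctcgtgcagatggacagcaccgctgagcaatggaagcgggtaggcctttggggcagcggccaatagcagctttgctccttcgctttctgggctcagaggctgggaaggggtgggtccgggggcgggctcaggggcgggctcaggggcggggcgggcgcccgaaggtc
The windows hold 2, 4, 5 and 2 matches. Those of Slc16a3 begin 27 and 14 bases before the start. Either motif was in all 10 windows of the 9 genes with a window among the 10 largest rises, in 7 of the 10 windows of the 10 largest falls (70.0%) and in 43.8% of 32851 promoter windows in all. A match describes the sequence and is not a measured binding site.

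Glycolysis rose as a group, from glucose uptake to lactate export. Of 23 members, 19 were higher, 1 was lower and 3 were not called, and 17 of the rises were at least 2-fold. The median change of the list was 1.5, beside -0.002 over all genes tested. In pathway order, the glucose transporter Slc2a1 was at 24.4, 22.4 and 24.6 FPKM at 24 h and 73.03, 71.5 and 69.9 FPKM at 48 h (log2 change 1.55), and phosphofructokinase Pfkl at 48.1, 48.1 and 54.5 FPKM at 24 h and 153, 147 and 135 FPKM at 48 h (log2 change 1.51). Aldolase A (Aldoa) was at 671, 691 and 694 FPKM at 24 h and 2177, 2072 and 2159.6 FPKM at 48 h, and its paralogue Aldoc at 4.05, 3.16 and 4.67 FPKM at 24 h and 57.1, 52.1 and 69.5 FPKM at 48 h. Aldoc thus gained 15.0-fold (log2 change 3.61 ± 0.14 (SE), adjusted p = 9.92e-06) and Aldoa 3.12-fold (log2 change 1.64 ± 0.05 (SE), adjusted p = 5.92e-06), although Aldoa remained the far higher of the 2 per transcript length. Further down, Tpi1 gained 5.07-fold, Pgk1 5.31-fold, Eno1 4.36-fold and Ldha, which makes lactate, 3.01-fold. Gapdh, often used as a reference gene, was at 1829.8, 1887 and 1831 FPKM at 24 h and 4969.6, 4576 and 5204 FPKM at 48 h and rose 2.66-fold (log2 change 1.41 ± 0.09 (SE), adjusted p = 3.56e-05). Pdk1, a kinase that inhibits pyruvate dehydrogenase, was at 6.86, 6.63 and 8.57 FPKM at 24 h and 49.03, 45.8 and 43.7 FPKM at 48 h (log2 change 2.50 ± 0.09 (SE), adjusted p = 8.46e-06). Hexokinase 2 (Hk2) did not follow, at 20.8, 22.01 and 20.6 FPKM at 24 h and 22.5, 25.7 and 17.7 FPKM at 48 h (log2 change 0.04 ± 0.12 (SE), adjusted p = 0.829), and its time points overlapped. In contrast to Slc16a3, the other lactate carrier of the list, Slc16a1 (MCT1), was at 36.1, 37.5 and 36.2 FPKM at 24 h and 32.1, 31.5 and 26.5 FPKM at 48 h (log2 change -0.28 ± 0.07 (SE), adjusted p = 0.0169), and its call was lost without any single 24 h library (adjusted p 0.0501 to 0.0678) and in a single fit of all 18 libraries (0.325).

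**Figure D2:**
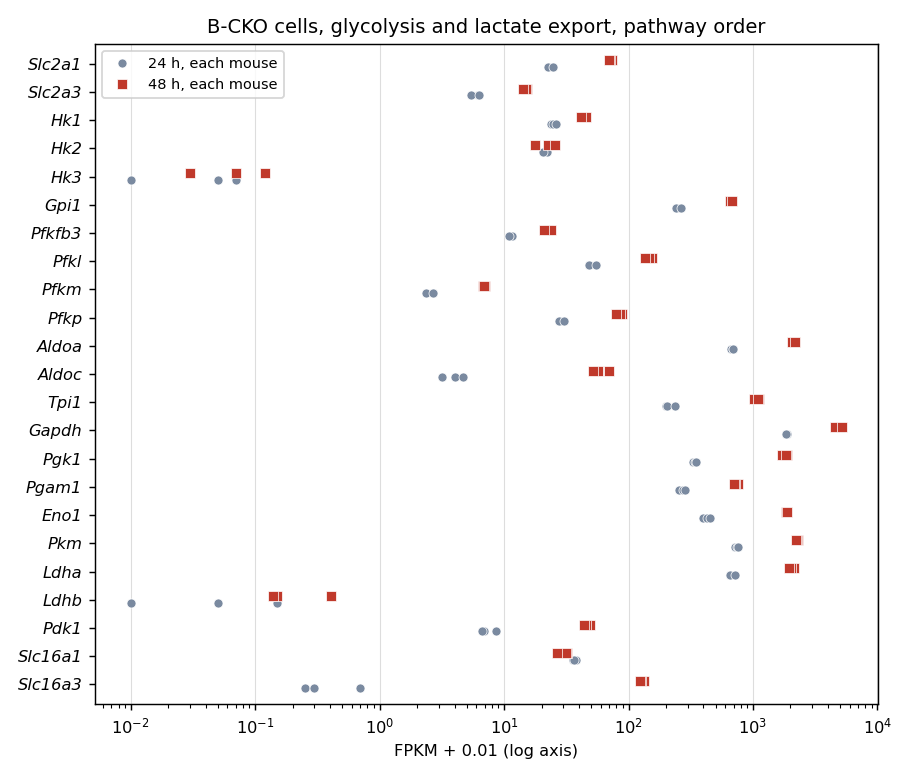
FPKM + 0.01 of the 23 glycolysis and lactate export genes in B-CKO cells on a log axis, in pathway order from the glucose transporters at the top, with circles for the 3 mice at 24 h and squares at 48 h. All except Hk2, Hk3, Ldhb and Slc16a1 lie to the right at 48 h, and the groups of 20 members do not overlap.

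A list of 42 genes of the HIF pathway, assembled after the values were seen, had 35 members higher, 3 lower and 4 not called, with a median of 1.43. It overlaps the glycolysis list, and its count describes these libraries only. The transcript of HIF-1alpha itself, Hif1a, was at 20.9, 21.1 and 22.7 FPKM at 24 h and 16, 17.01 and 16.2 FPKM at 48 h and fell (log2 change -0.37), as did Hif1an, which blocks HIF by hydroxylation (log2 change -0.56). The HIF targets Vegfa, a vessel growth factor, and Ak4, a mitochondrial adenylate kinase, had means of 1.23 and 0.323 FPKM at 24 h and of 8.03 and 14.6 FPKM at 48 h. Ddit4, which restrains mTORC1 and is a target of both HIF and ATF4, was at 8.88, 8.97 and 9.04 FPKM at 24 h and 89.98, 90.9 and 100.1 FPKM at 48 h (log2 change 3.25 ± 0.05 (SE), adjusted p = 1.1e-06). Either core was in 82.4% of the 51 windows of this list, beside 75.6% of 45 windows of ribosome biogenesis genes and 68.9% of 45 windows of mitotic genes. Counted separately, ACGTG was in 58.8%, 40% and 26.7% of them and in 19.6% of all windows, and GCGTG in 58.8%, 66.7% and 60% of them and in 32.4% of all windows. The metallothioneins Mt1 and Mt2, which bind zinc, were among the 10 largest rises. Mt1 was at 1.16, 2.04 and 2.22 FPKM at 24 h and 35.6, 26.9 and 54.8 FPKM at 48 h (log2 change 3.80 ± 0.27 (SE), adjusted p = 6.1e-05) and Mt2 at 0.2, 0.41 and 0 FPKM at 24 h and 11.1, 10.9 and 24.5 FPKM at 48 h (log2 change 3.69 ± 0.30 (SE), adjusted p = 0.000117), in both cases highest at 48 h in mouse 3.

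The TCA cycle and the respiratory chain showed no such rise as groups. Of 19 TCA cycle genes, 2 were higher and 7 lower, with a median of -0.08 (1 and 12 after rescaling to TPM, 1 and 3 without mouse 1). Ogdh, the oxoglutarate dehydrogenase, fell from 55.5, 53.7 and 55.1 FPKM to 34.2, 36.5 and 32.7 FPKM (log2 change -0.66 ± 0.05 (SE), adjusted p = 5.66e-05), and Idh2 rose (log2 change 0.44). Of 35 respiratory chain subunits, 11 were higher and 7 lower, and this split depended on the scaling, with 7 higher and 13 lower after rescaling to TPM. Without mouse 1, 0 were higher and 5 lower, and in the fit of 18 libraries 5 were higher and 5 lower. The count of higher subunits was 12 without mouse 2 and 3 without mouse 3, and it ranged from 6 to 14 when single libraries were left out, with the highest count without the 48 h library of mouse 2. Cycs, which encodes cytochrome c, fell (log2 change -0.41) in both scalings.

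Mitotic genes rose almost throughout. Of 48 members, 46 were higher, none was lower, and the median was 1.06. The mitotic cyclin Ccnb2 was at 16.7, 14.98 and 18.3 FPKM at 24 h and 97.7, 95.2 and 97.2 FPKM at 48 h (log2 change 2.47 ± 0.07 (SE), adjusted p = 4.09e-06). Cenpa, the histone H3 variant of centromeres, was at 18.5, 20.3 and 21.3 FPKM at 24 h and 110.4, 107 and 113 FPKM at 48 h (log2 change 2.40 ± 0.05 (SE), adjusted p = 2.29e-06). Ube2c, which marks mitotic proteins for degradation, was at 58.6, 60.3 and 72.5 FPKM at 24 h and 208, 193 and 214 FPKM at 48 h (log2 change 1.68 ± 0.08 (SE), adjusted p = 1.99e-05). Ccnb2 gained 5.80-fold and Cenpa 5.50-fold, with little spread between mice. Mki67, the proliferation marker, was at 29.9, 34.03 and 35.7 FPKM at 24 h and 68.9, 87.3 and 56.3 FPKM at 48 h (log2 change 1.05 ± 0.15 (SE), adjusted p = 0.00142), with the 48 h value of mouse 3 the lowest and that of mouse 2 the highest.

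Promoters of Ccnb2 and Cenpa are shown as examples of the CCAAT box and the CHR element TTTGAA, letters known from genes expressed in G2 and mitosis. The windows are chr9:70421505-70421804 (minus strand) and chr5:30666636-30666935 (plus), from the same RefSeq table, with both motifs on either strand in capitals.
Ccnb2: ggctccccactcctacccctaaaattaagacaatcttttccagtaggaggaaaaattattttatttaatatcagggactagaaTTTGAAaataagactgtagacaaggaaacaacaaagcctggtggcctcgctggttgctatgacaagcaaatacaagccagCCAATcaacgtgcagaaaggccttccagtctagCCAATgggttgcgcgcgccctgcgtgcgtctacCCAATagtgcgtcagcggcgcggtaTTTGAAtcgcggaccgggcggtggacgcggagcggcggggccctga
Cenpa: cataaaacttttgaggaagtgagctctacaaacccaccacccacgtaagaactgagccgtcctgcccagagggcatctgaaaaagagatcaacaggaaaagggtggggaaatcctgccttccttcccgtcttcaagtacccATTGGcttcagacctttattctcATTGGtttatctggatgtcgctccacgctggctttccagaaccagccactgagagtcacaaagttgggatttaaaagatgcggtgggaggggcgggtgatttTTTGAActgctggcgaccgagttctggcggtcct
Ccnb2 holds 5 matches and Cenpa 3. Both motifs together were in 62.2% of the 45 windows of the mitosis list (28 windows) and in 6.95% of all windows.

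Genes of DNA replication fell in part. Of 39 DNA replication genes, 22 were lower and 1 was higher, with a median of -0.20. Mcm2, a subunit of the replicative helicase, was at 132, 131 and 130.2 FPKM at 24 h and 91.4, 94.3 and 84.6 FPKM at 48 h (log2 change -0.54 ± 0.04 (SE), adjusted p = 0.000117), and the clamp loader subunit Rfc3 fell (log2 change -0.71). The count of lower replication genes was 14 without mouse 1 and 14 without mouse 2, and without mouse 3 there were 6 higher, while without mouse 1, without mouse 2, in the block by mouse and after rescaling to TPM none was higher. Of 22 genes for G1 cyclins, CDKs and E2F factors, 8 were lower and 3 higher. Ccnd2, the D-type cyclin that B cells induce on activation, was at 219, 214 and 215 FPKM at 24 h and 98.7, 104 and 87.4 FPKM at 48 h (log2 change -1.15 ± 0.06 (SE), adjusted p = 2.53e-05). Cdk6, its partner kinase, fell (log2 change -0.82), and E2f2 rose (log2 change 1.00). In dNTP synthesis, Tk1 and Rrm2 rose (log2 changes 0.73 and 0.49), whereas Dctpp1 and Nme1 fell (log2 changes -0.61 and -0.50).

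At the same time 15 of 18 genes of CDK inhibitors and anti-proliferative factors were higher and 1 was lower, with a median of 0.86. Cdkn1a (p21) was at 2.40, 2.71 and 1.85 FPKM at 24 h and 6.36, 7.07 and 6.73 FPKM at 48 h (log2 change 1.22 ± 0.11 (SE), adjusted p = 0.000159). Cdkn2c (p18), an inhibitor of CDK4 and CDK6 needed for PC differentiation, was at 9.64, 9.83 and 8.95 FPKM at 24 h and 22.8, 20.8 and 21.1 FPKM at 48 h (log2 change 1.11 ± 0.06 (SE), adjusted p = 1.99e-05). Cdkn2a, which encodes p16 and ARF, was at 0.89, 0.65 and 1.36 FPKM at 24 h and 8.01, 5.98 and 7.44 FPKM at 48 h (log2 change 2.06 ± 0.16 (SE), adjusted p = 8.27e-05). The ratios of means were 2.90, 2.28 and 7.39, with no overlap between the time points. Ccng2, a cyclin that opposes the cell cycle, was at 7.38, 7.25 and 6.53 FPKM at 24 h and 34.1, 34.3 and 35.6 FPKM at 48 h (log2 change 2.15 ± 0.05 (SE), adjusted p = 2.98e-06). Cdkn3, a phosphatase that itself peaks in mitosis, was at 6.19, 6.05 and 8.29 FPKM at 24 h and 34.5, 38.5 and 37.2 FPKM at 48 h (log2 change 2.28 ± 0.11 (SE), adjusted p = 1.82e-05). The exception was Btg3, which fell (log2 change -0.76). Of 23 p53 targets, 11 were higher and 4 lower, among them Trp53inp1 (log2 change 1.70) and Aen (log2 change -0.93).

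Genes of ribosome production fell almost without exception. Myc was at 122, 123 and 109 FPKM at 24 h and 54.8, 49.96 and 51.6 FPKM at 48 h (log2 change -1.16 ± 0.06 (SE), adjusted p = 1.94e-05). Of 41 ribosome biogenesis genes, 40 were lower, none was higher and 1 was not called (Polr1c, log2 change -0.02), with a median of -0.94. The ribosomal RNA processing factors Utp20 and Rrp9 had the largest falls of the list. Utp20 was at 25.6, 26.6 and 25.8 FPKM at 24 h and 8.28, 10.2 and 6.97 FPKM at 48 h (log2 change -1.53 ± 0.11 (SE), adjusted p = 8.02e-05) and Rrp9 at 114, 115 and 105 FPKM at 24 h and 41.5, 39.04 and 39.3 FPKM at 48 h (log2 change -1.46 ± 0.05 (SE), adjusted p = 5.92e-06), again with no overlap between the time points. Mdn1, a giant ATPase of the 60S pathway and outside the list, was at 16.99, 18.8 and 16.9 FPKM at 24 h and 4.09, 6.30 and 3.63 FPKM at 48 h (log2 change -1.74 ± 0.16 (SE), adjusted p = 0.000205), and Ipo4, an importin of histones and ribosomal proteins, at 65.5, 62.9 and 61.2 FPKM at 24 h and 21.6, 22.8 and 20.5 FPKM at 48 h (log2 change -1.51 ± 0.05 (SE), adjusted p = 5.92e-06). CACGTG, the letters of the E-box that MYC and MAX bind, was in 22.2% of 45 windows of the ribosome list and in 7.15% of all windows.

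Within the MYC network, MYC's partner Max fell (log2 change -0.39), as did Mnt and Mga, which bind MAX without MYC (log2 changes -0.23 and -0.48), and the MYC paralogue Mycl rose (log2 change 0.30). Of the MXD family, which opposes MYC, Mxi1, Mxd3, Mxd4 and Mxd1 were higher. In all, 5 of 13 network genes were higher and 4 lower (3 and 2 without mouse 1, and 2 lower without mouse 3). The call of Mnt was lost without mouse 1, without mouse 3 and in the fit of 18 libraries. Mycl and Mxd1 did not both keep their calls without mouse 1 or in that fit. Calls of Mxd4 and Mga were lost without mouse 1 (adjusted p 0.0622 and 0.174) and without the 24 h library of mouse 2 (0.064 and 0.0826), that of Mxd4 also without mouse 2 (0.0936) and that of Mga without mouse 3 (0.124) and any of 3 other single libraries (0.0636 to 0.0799). Mxi1 was at 1.36, 1.66 and 1.62 FPKM at 24 h and 8.35, 7.70 and 7.95 FPKM at 48 h (log2 change 1.82 ± 0.08 (SE), adjusted p = 1.18e-05) and Mxd3 at 3.59, 3.69 and 6.03 FPKM at 24 h and 15.9, 15.96 and 18.6 FPKM at 48 h (log2 change 1.74 ± 0.17 (SE), adjusted p = 0.000234). Mxi1 is also a known HIF target, and it gained 5.17-fold. Lists of tRNA charging and of one-carbon metabolism also had mostly lower members. Of 20 cytosolic aminoacyl-tRNA synthetases, which charge tRNAs, 17 were lower and 1 was higher, with a median of -0.36, and Lars fell most (log2 change -0.66). The call of the higher one, Qars, was lost without any single 24 h library (adjusted p 0.0519 to 0.0959), without any 1 mouse and after rescaling to TPM. Of 25 serine, glycine, nucleotide and one-carbon enzymes, 15 were lower and 4 higher, with a median of -0.29. Without mouse 1, 12 of them were lower and 0 higher, after rescaling to TPM 16 were lower and 1 higher, and 1 to 2 were higher without any single 24 h library. Mat2a, which makes S-adenosylmethionine, was at 177, 182 and 174 FPKM at 24 h and 83.6, 87.95 and 75.9 FPKM at 48 h (log2 change -1.10 ± 0.06 (SE), adjusted p = 2.08e-05), and the nucleotide enzymes Ctps and Gart fell to 0.526 and 0.536 of the 24 h mean.

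**Figure D3:**
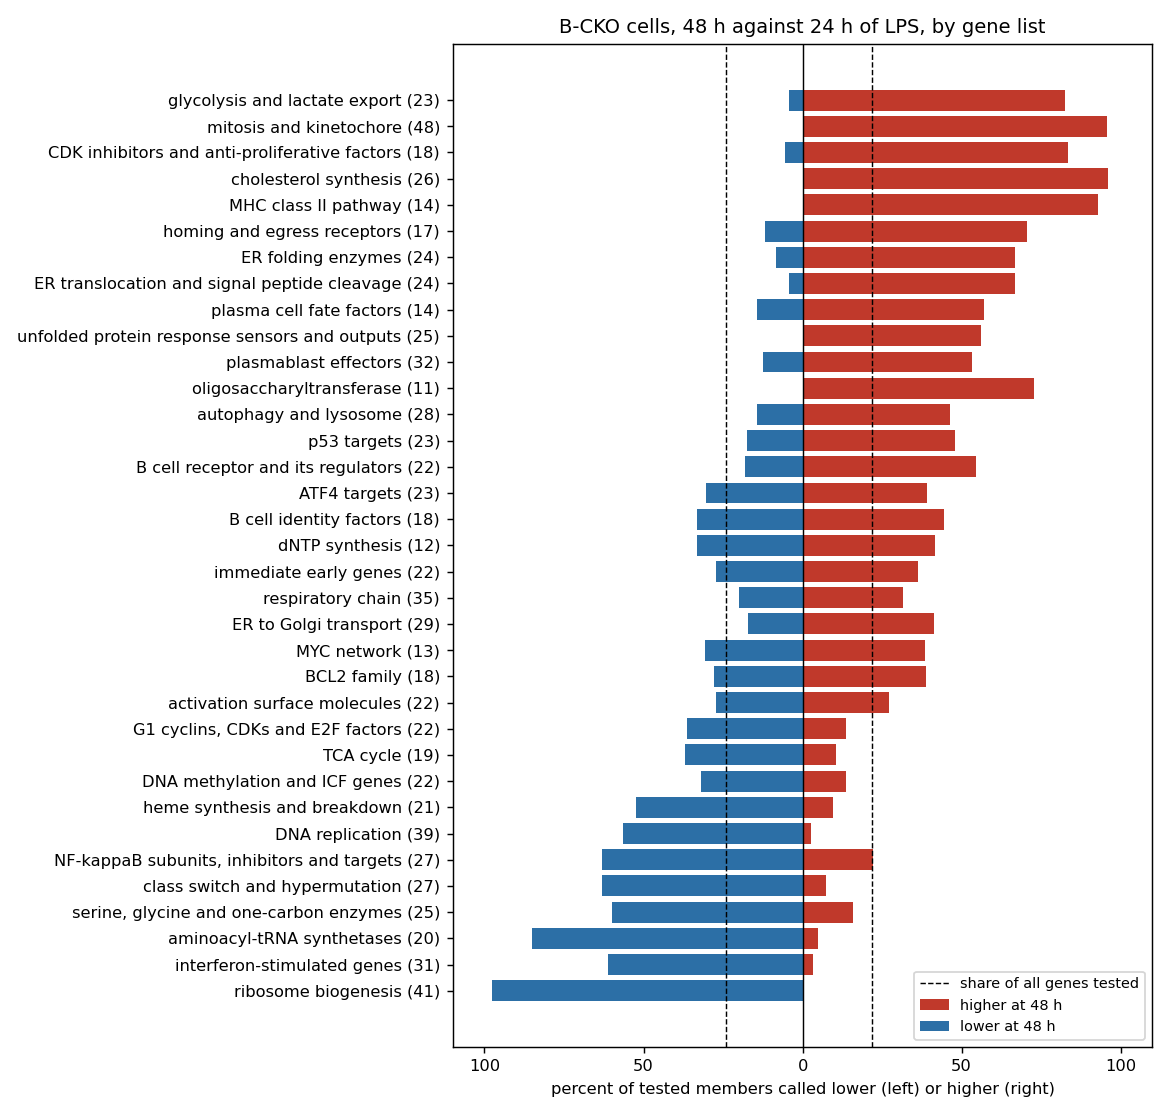
Percent of tested members called higher (right, red) or lower (left, blue) at 48 h than at 24 h in B-CKO cells, for 35 gene lists ordered by their median change, with the number of tested members in parentheses. Dashed lines mark the shares over all genes tested, 21.7% higher and 24% lower, and ribosome biogenesis lies at the bottom with 40 of 41 members lower. Most listed members averaged 1 FPKM or more. Of the 9799 genes at that level, 2784 were higher and 3628 lower, which are larger shares than the lines mark.

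Most genes of antibody class switching and its DNA repair fell. Of 27 members, 2 were higher (Polh and Nhej1) and 17 were lower, with a median of -0.27. Ung, which removes uracil from DNA, was at 66.1, 62.4 and 61.6 FPKM at 24 h and 28.5, 27.9 and 26.4 FPKM at 48 h (log2 change -1.17 ± 0.04 (SE), adjusted p = 8.46e-06). Apex1, which cuts the resulting abasic site, was at 185, 184 and 183 FPKM at 24 h and 105, 99.5 and 107 FPKM at 48 h (log2 change -0.82 ± 0.04 (SE), adjusted p = 1.37e-05), and Xrcc5 (Ku80), an end-joining factor, fell (log2 change -0.87). Without mouse 1, 9 members were called lower. The call of Nhej1, an end-joining factor (log2 change 0.40), was lost without any of 4 single libraries (adjusted p 0.0558 to 0.0951).

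Several factors of PC fate rose. Prdm1 was at 6.17, 5.87 and 6.26 FPKM at 24 h and 16.9, 18.3 and 17.6 FPKM at 48 h (log2 change 1.39 ± 0.05 (SE), adjusted p = 8.82e-06). Xbp1 was at 52.9, 50.7 and 50.1 FPKM at 24 h and 105, 104 and 124 FPKM at 48 h (log2 change 1.10 ± 0.07 (SE), adjusted p = 4.57e-05), with mouse 3 highest at 48 h. Pou2af1, the B cell coactivator OBF1, was at 191, 182 and 193 FPKM at 24 h and 366, 368 and 397 FPKM at 48 h (log2 change 1.00 ± 0.05 (SE), adjusted p = 1.51e-05). The ratios of means were 2.88, 2.17 and 2.00, and all 3 genes rose in each mouse. Of the 14 PC fate factors, 8 were higher, 2 lower (0 without mouse 1) and 4 not called, with a median of 0.30. Irf4 was at 62.7, 67.3 and 60.5 FPKM at 24 h and 54.8, 58.9 and 52.4 FPKM at 48 h (log2 change -0.19 ± 0.06 (SE), adjusted p = 0.0284), and this call was lost when any of 4 single libraries was left out (adjusted p 0.0716 to 0.0964) and in the fit of 18 libraries (0.67).

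Of 18 B cell identity factors, 8 were higher and 6 lower, with a median of 0.15 (8 and 2 without mouse 1, 6 and 3 in the fit of 18 libraries). Pax5 was at 147, 139 and 135 FPKM at 24 h and 89.2, 107 and 87.03 FPKM at 48 h (log2 change -0.57 ± 0.08 (SE), adjusted p = 0.00136) and Bcl6, the germinal centre repressor, at 12.5, 10.6 and 10.96 FPKM at 24 h and 6.95, 7.76 and 8.91 FPKM at 48 h (log2 change -0.48 ± 0.10 (SE), adjusted p = 0.0069), with a call that was lost without mouse 1 (adjusted p = 0.0667), without mouse 2 (0.0545) and in the fit of 18 libraries (0.141). Bach2 was at 19.4, 18.8 and 20.1 FPKM at 24 h and 16.1, 18.03 and 14.8 FPKM at 48 h (log2 change -0.24 ± 0.07 (SE), adjusted p = 0.0306), a call that was lost with the mouse as a block (adjusted p = 0.0745), in the fit of 18 libraries (0.272) and without any of 5 single libraries (0.0579 to 0.101). Klf2, a quiescence and homing factor, and Ciita, the master regulator of MHC class II, rose (log2 changes 0.85 and 0.62). Pax5 thus fell to 0.674 of its 24 h mean. Ebf1 and Foxp1, which also hold B cell identity, had log2 changes of -0.22 and -0.25. Without mouse 1, both of these calls were lost (adjusted p = 0.0539 for Ebf1).

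Among 32 plasmablast effectors, 17 were higher, 4 lower (1 without mouse 1) and 11 not called, with a median of 0.26 (0.77 over members that averaged 1 FPKM or more). Jchain, which joins IgM pentamers, was at 11.8, 13.9 and 16.1 FPKM at 24 h and 50.9, 46.03 and 53.9 FPKM at 48 h (log2 change 1.79 ± 0.11 (SE), adjusted p = 3.55e-05), and its 48 h values were still under the mean of 90.6 FPKM at 0 h. Sdc1, the PC marker CD138, was at 1.05, 1.46 and 2 FPKM at 24 h and 1.52, 1.91 and 2 FPKM at 48 h (log2 change 0.18 ± 0.15 (SE), adjusted p = 0.377), and the time points overlapped. Ly6c2, a plasmablast surface antigen, fell from 5.79, 5.94 and 6.52 FPKM to 1.80, 1.95 and 2.28 FPKM (log2 change -1.24 ± 0.09 (SE), adjusted p = 6.1e-05). Mean levels of Mzb1, an immunoglobulin chaperone, and Txndc5, a disulfide isomerase, went from 306 and 56.2 FPKM to 597 and 115 FPKM.

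**Figure D4:**
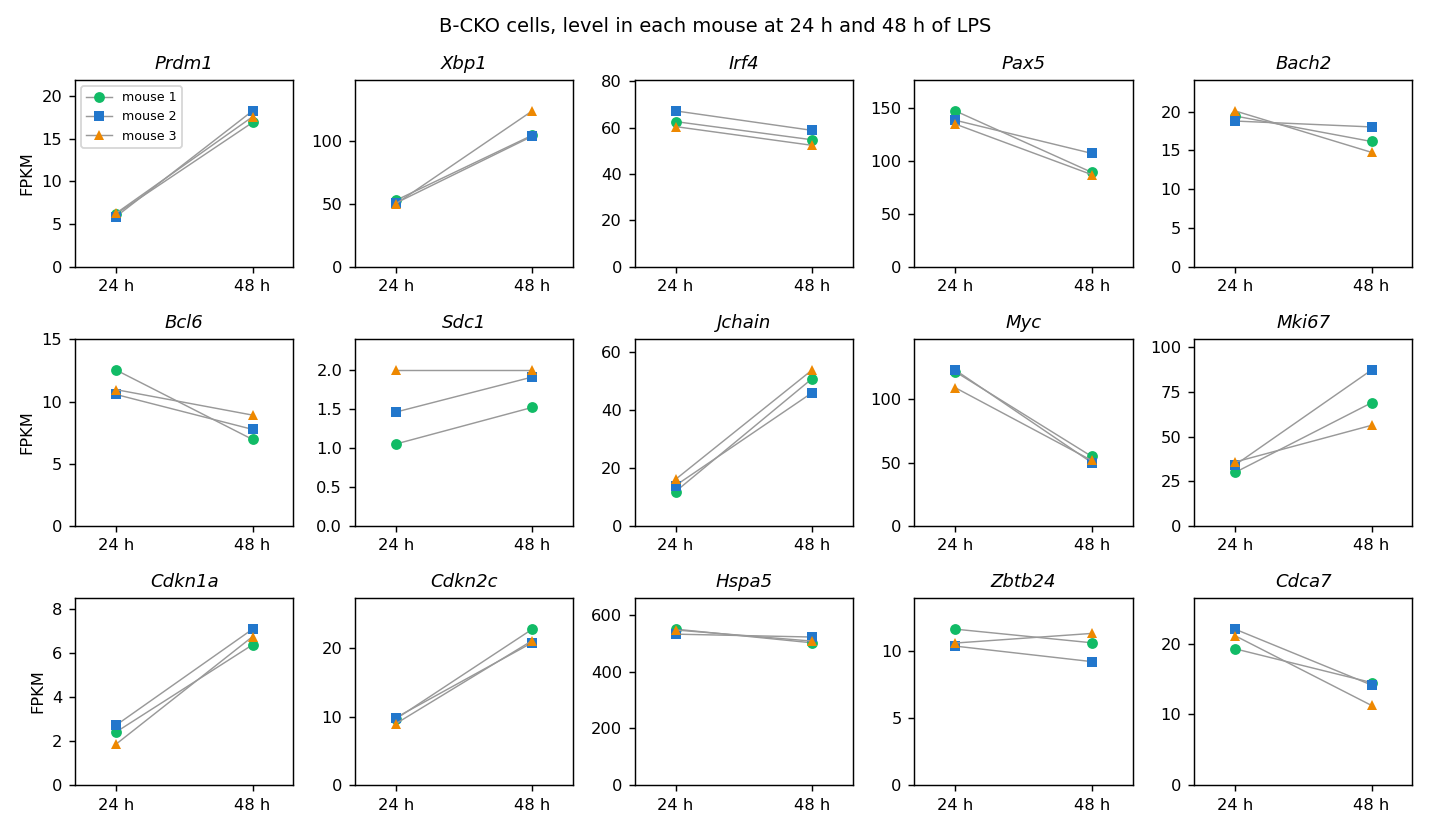
FPKM of 15 regulators and markers in each of the 3 B-CKO mice at 24 h and 48 h, with 1 line per mouse and each axis starting at 0. Prdm1, Xbp1 and the CDK inhibitors rise in every mouse, Myc and Pax5 fall in every mouse, and the time points overlap for Sdc1 and Zbtb24.

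The secretory apparatus rose by modest factors and unevenly. Of 24 ER folding enzymes, 16 were higher and 2 lower (median 0.42). Of 24 genes for ER translocation and signal peptide cleavage, 16 were higher and 1 lower (median 0.37). Ero1a, the ER oxidase and a HIF target, was at 16.04, 16.5 and 17.1 FPKM at 24 h and 43.9, 46.01 and 37.6 FPKM at 48 h (log2 change 1.31 ± 0.07 (SE), adjusted p = 2.95e-05), and its paralogue Ero1b, which XBP1 controls, at 24.1, 24.4 and 26.04 FPKM at 24 h and 44.5, 49.9 and 51.5 FPKM at 48 h (log2 change 0.94 ± 0.06 (SE), adjusted p = 4.6e-05). The signal peptidase subunit Sec11c was at 114, 116 and 115 FPKM at 24 h and 219.7, 207 and 235 FPKM at 48 h (log2 change 0.93 ± 0.05 (SE), adjusted p = 2.22e-05). In contrast, the lectin chaperone Calr and the isomerase Pdia3 fell (log2 changes -0.21 and -0.24), and both calls were lost without mouse 1 (adjusted p 0.139 and 0.0503) and in the fit of 18 libraries (0.301 and 0.344). Of 29 ER to Golgi transport genes, 12 were higher and 5 lower (median 0.07, with 9 and 2 without mouse 1), and the COPII subunits parted, with Sec24d at 2.03, 2.08 and 2.34 FPKM at 24 h and 10.2, 11.5 and 11.8 FPKM at 48 h (log2 change 1.95 ± 0.08 (SE), adjusted p = 1.07e-05) and Sec24b and Sec31a lower (log2 changes -0.36 and -0.50).

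Of 25 genes of the unfolded protein response, 14 were higher and none was lower (median 0.26, with 12 and 1 after rescaling to TPM and 13 and 1 without a trend), although the main ER chaperone was not among them. Hspa5 (BiP) was at 551, 533 and 548 FPKM at 24 h and 502, 523 and 508 FPKM at 48 h (log2 change -0.09 ± 0.04 (SE), adjusted p = 0.116), with every 48 h value under every 24 h value, and it was called lower after rescaling to TPM (log2 change -0.14, adjusted p = 0.0474) and in limma without a trend (log2 change -0.09, adjusted p = 0.0482). Creb3l2, an ER membrane transcription factor, was at 1.02, 1.18 and 1.3 FPKM at 24 h and 3.66, 4.95 and 4.45 FPKM at 48 h (log2 change 1.30 ± 0.11 (SE), adjusted p = 0.000118). In the fit of 18 libraries, 8 members of the list were higher. Among the 11 oligosaccharyltransferase subunits, which attach sugars to nascent proteins, 8 were higher and none lower (4 higher without mouse 1, 7 higher and 1 lower after rescaling to TPM). Ostc, an adaptor subunit of the complex, was at 32.2, 34.1 and 33.1 FPKM at 24 h and 44.3, 42.9 and 49.4 FPKM at 48 h (log2 change 0.45 ± 0.06 (SE), adjusted p = 0.000773). Its means in CON cells were 83.8 and 111 FPKM, with a log2 change of 0.39.

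Most interferon-stimulated genes fell. Of 31 members, 19 were lower, 1 was higher (Gbp2) and 11 were not called, with a median of -0.57. Cxcl10, a chemokine, was at 5.43, 7.29 and 5.98 FPKM at 24 h and 0.54, 0.6 and 0.48 FPKM at 48 h (log2 change -2.22 ± 0.11 (SE), adjusted p = 1.62e-05). Ifit1, which binds foreign RNA, was at 30.5, 33.05 and 34.1 FPKM at 24 h and 5.77, 6.84 and 5.98 FPKM at 48 h (log2 change -2.22 ± 0.07 (SE), adjusted p = 5.92e-06), and Oasl1, which restrains Irf7 translation, at 97.02, 101 and 98.7 FPKM at 24 h and 24.4, 25.1 and 27.2 FPKM at 48 h (log2 change -1.91 ± 0.05 (SE), adjusted p = 2.87e-06). In all 3 genes the 48 h values lay far under the lowest 24 h value. The single rise, of Gbp2 (log2 change 0.40), was lost without mouse 3 (adjusted p = 0.0991). The promoter of Ifit1 (chr19:34640639-34640938, plus strand, RefSeq on GRCm38.p6) is shown with the letters GAAA, any 2 bases (NN) and GAAA again, the core of the element that binds the interferon-activated complex ISGF3. The motif was searched on both strands, and here it stands in capitals on the opposite strand, where it reads TTTC.
Ifit1: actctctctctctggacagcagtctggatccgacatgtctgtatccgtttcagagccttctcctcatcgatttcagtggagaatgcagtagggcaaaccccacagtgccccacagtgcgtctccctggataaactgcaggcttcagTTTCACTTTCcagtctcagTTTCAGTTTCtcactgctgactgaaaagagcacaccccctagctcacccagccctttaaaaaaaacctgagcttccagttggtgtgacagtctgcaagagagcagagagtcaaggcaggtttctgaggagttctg
It holds 2 matches, which begin 104 and 85 bases before the start. The motif was in 55.2% of 29 windows of the list and in 3.44% of all windows.

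Of 27 NF-kappaB subunits, inhibitors and targets, 17 were lower and 6 higher, with a median of -0.26 (10 lower and 1 higher in the fit of 18 libraries). Ccl22, a chemokine for T cells, was at 17.03, 25.4 and 24.4 FPKM at 24 h and 4.64, 3.91 and 4.28 FPKM at 48 h (log2 change -2.12 ± 0.15 (SE), adjusted p = 5.93e-05). Nfkbiz, which encodes the nuclear IkappaB family protein IkappaB-zeta, was at 84.8, 80.5 and 70.5 FPKM at 24 h and 32.7, 33.04 and 27.6 FPKM at 48 h (log2 change -1.31 ± 0.09 (SE), adjusted p = 5.87e-05), and Il6, one of its targets, at 5.93, 5.47 and 5.34 FPKM at 24 h and 1.72, 1.27 and 0.85 FPKM at 48 h (log2 change -1.55 ± 0.14 (SE), adjusted p = 0.000177). Each of these was lower in all 3 mice without overlap. The receptor-side gene Cd180 was at 77.97, 77.9 and 77.95 FPKM at 24 h and 47.5, 48.5 and 42.6 FPKM at 48 h (log2 change -0.74 ± 0.05 (SE), adjusted p = 5.5e-05). Icosl, the ligand for ICOS on T cells, had the largest fall among 22 activation molecules, from 18.7, 17.3 and 16.97 FPKM to 5.41, 5.45 and 6.08 FPKM (log2 change -1.49 ± 0.06 (SE), adjusted p = 1.26e-05), and Fas rose (log2 change 1.05). The count of higher NF-kappaB genes was 3 without the 24 h library of mouse 2, without the 48 h library of mouse 1, without either of these mice, and after rescaling to TPM. Immediate early genes had no common direction, with 8 of 22 higher and 6 lower (8 and 2 without mouse 1, 5 and 1 in the fit of 18 libraries, and 3 lower among members that averaged 1 FPKM or more), among them Junb at 62.6, 59.5 and 58.1 FPKM at 24 h and 125, 121 and 137 FPKM at 48 h (log2 change 1.07 ± 0.06 (SE), adjusted p = 2.16e-05) and Nr4a1, a marker of recent antigen receptor signalling, at 17.1, 15.99 and 15.98 FPKM at 24 h and 9.88, 8.34 and 9.36 FPKM at 48 h (log2 change -0.77 ± 0.07 (SE), adjusted p = 0.000155, but 0.0562 in the fit of 18 libraries).

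Cholesterol synthesis rose almost throughout the pathway. Of 26 members, 25 were higher and none was lower, with a median of 0.83. Pmvk, the phosphomevalonate kinase, was at 25.5, 26.6 and 29.4 FPKM at 24 h and 74.3, 61.5 and 74.8 FPKM at 48 h (log2 change 1.34 ± 0.09 (SE), adjusted p = 4.83e-05). Msmo1, a sterol demethylating oxidase, was at 50.9, 50.05 and 51.7 FPKM at 24 h and 132, 119.6 and 123 FPKM at 48 h (log2 change 1.28 ± 0.04 (SE), adjusted p = 5.92e-06), and Tm7sf2, a sterol reductase, at 4.72, 3.89 and 4.73 FPKM at 24 h and 13.96, 12.3 and 15.4 FPKM at 48 h (log2 change 1.45 ± 0.10 (SE), adjusted p = 5.96e-05). The member not called was Hsd17b7, a sterol reductase (log2 change -0.03).

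Most genes of antigen presentation and of homing rose. Of 14 MHC class II pathway genes, 13 were higher and none lower, with a median of 0.60. After rescaling to TPM, and also without the 48 h library of mouse 3, 13 were higher and 1 lower. H2-Ob, a modulator of peptide loading, was at 40.5, 39.9 and 37.9 FPKM at 24 h and 69.8, 68.3 and 78.7 FPKM at 48 h (log2 change 0.85 ± 0.06 (SE), adjusted p = 5.81e-05), and H2-Eb1 at 376, 354 and 388 FPKM at 24 h and 618, 589 and 785 FPKM at 48 h (log2 change 0.82 ± 0.11 (SE), adjusted p = 0.000933). Both were highest at 48 h in mouse 3 and stayed far under their 0 h means of 471 and 1880.0 FPKM. Of 17 homing and egress receptors, 12 were higher and 2 lower (S1pr3 and Itgal), with a median of 0.59. The call of S1pr3 was lost without any of 4 single libraries (adjusted p 0.0593 to 0.0799) and in the fit of 18 libraries (0.29), and without mouse 1 neither was called lower. S1pr4 was at 12.7, 12.1 and 12.8 FPKM at 24 h and 34.8, 34.95 and 45.3 FPKM at 48 h (log2 change 1.53 ± 0.10 (SE), adjusted p = 4.89e-05), Cxcr4, the receptor for the bone marrow chemokine CXCL12, at 7.43, 7.31 and 7.14 FPKM at 24 h and 17.5, 17.5 and 19.3 FPKM at 48 h (log2 change 1.20 ± 0.05 (SE), adjusted p = 1.44e-05), and Gpr183, which positions activated B cells, at 9.47, 9.02 and 9.73 FPKM at 24 h and 18.2, 17.99 and 22.1 FPKM at 48 h (log2 change 0.97 ± 0.08 (SE), adjusted p = 0.000138). Of 22 genes of the B cell receptor and its regulators, 12 were higher and 4 lower (10 and 1 without mouse 1, and 2 lower without mouse 3), with Cd79a at 669.8, 642 and 648 FPKM at 24 h and 899, 852 and 1032 FPKM at 48 h (log2 change 0.50 ± 0.08 (SE), adjusted p = 0.00183) and the inhibitory receptor Cd72 at 183, 185 and 152 FPKM at 24 h and 113, 108 and 104 FPKM at 48 h (log2 change -0.67 ± 0.08 (SE), adjusted p = 0.000561).

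The study follows heme synthesis and the amino acid transporter CD98 mainly in another B cell subset. For splenic B cells it compares the genotypes and reports no reduction of Alad or Cpox where Zbtb24 is lost. These genes were read here as the other lists were, between 24 h and 48 h. Of 21 genes of heme synthesis, transport and breakdown, 11 were lower and 2 higher (Hmox1 and Hmox2), with a median of -0.14. Alad, the second enzyme of the pathway, was at 10.2, 10.6 and 10.9 FPKM at 24 h and 6.75, 5.94 and 5.85 FPKM at 48 h (log2 change -0.69 ± 0.07 (SE), adjusted p = 0.000239). Cpox, a later enzyme, was at 32.1, 32.9 and 31.5 FPKM at 24 h and 29.04, 29.2 and 27.5 FPKM at 48 h (log2 change -0.16 ± 0.04 (SE), adjusted p = 0.0114), and Hmox1, which degrades heme, at 1.69, 2.16 and 1.88 FPKM at 24 h and 2.85, 2.97 and 3.72 FPKM at 48 h (log2 change 0.52 ± 0.11 (SE), adjusted p = 0.0065). Except for Alad, the mitochondrial carriers Slc25a37 and Slc25a38 had the largest falls (log2 changes -0.53 and -0.52). Without the 24 h library of mouse 1, 7 members were called lower, as without mouse 2, and without mouse 1 at both times, 3. In the fit of 18 libraries, 5 were lower and 0 higher, and the calls of Cpox, Hmox1 and Hmox2 were lost (adjusted p 0.282, 0.0646 and 0.229). Calls of Cpox, Hmox1 and both carriers were lost without mouse 1 (adjusted p 0.0520 to 0.0935), and that of Cpox also without mouse 2 (0.0562). Both CD98 chains were called lower. The heavy chain Slc3a2 was at 77.4, 80.3 and 77.1 FPKM at 24 h and 66.3, 64.04 and 66.5 FPKM at 48 h (log2 change -0.25 ± 0.03 (SE), adjusted p = 0.000866, but 0.246 in the fit of 18 libraries) and the light chain Slc7a5, a leucine carrier, at 89.3, 91.1 and 85.5 FPKM at 24 h and 60.5, 61.7 and 58.7 FPKM at 48 h (log2 change -0.55 ± 0.04 (SE), adjusted p = 5.23e-05). Of 23 ATF4 targets, which include these 2, 9 were higher and 7 lower (3 and 3 without mouse 1, 7 and 3 in the fit of 18 libraries).

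ZBTB24 is one of the genes of ICF syndrome, together with Dnmt3b, Cdca7 and Hells. Of 22 genes of DNA methylation and ICF, 7 were lower and 3 higher, with a median of -0.09 (4 and 2 without mouse 1). Cdca7, an activator of the remodeller HELLS and a known ZBTB24 target, was at 19.3, 22.1 and 21.2 FPKM at 24 h and 14.5, 14.2 and 11.3 FPKM at 48 h (log2 change -0.62 ± 0.10 (SE), adjusted p = 0.00232). In CON cells its means were 82.6 and 57.0 FPKM, above all B-CKO values at both times, and the log2 change was -0.53 there. Hells was at 60.5, 65.5 and 65.7 FPKM at 24 h and 49.8, 53.6 and 40.8 FPKM at 48 h (log2 change -0.41 ± 0.10 (SE), adjusted p = 0.0121), a call that was lost without the 24 h library of mouse 2 (adjusted p = 0.0523) or without mouse 1 (0.0787). Dnmt3b fell (log2 change -0.57), a call that was lost without mouse 2 (adjusted p = 0.0613). The maintenance genes Dnmt1 and Uhrf1 were at 92.9, 95.2 and 101 FPKM at 24 h and 93.8, 104 and 79.8 FPKM at 48 h and at 143, 143 and 156 FPKM at 24 h and 144, 148 and 124 FPKM at 48 h. Neither passed the test (adjusted p 0.617 and 0.385), and in both the 48 h value of mouse 3 lay under all others.

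The same contrast in CON cells, which shares no library with it, gave 3058 genes higher and 3762 lower among 15178 tested (44.9% called). Of the 6964 genes called in B-CKO cells, 5669 were called in the same direction in CON cells and 4 in the opposite direction. All 511 genes that changed at least 2-fold had the same sign there, and 509 of them (99.6%) were called. The difference between the changes of the 2 genotypes was tested in limma over 12 libraries with 15844 genes, of which 0% (0 genes) passed. The smallest adjusted p was 0.189, and 1158 genes (7.31%) had an unadjusted p under 0.05. The smallest value was shared by 3 genes, which are named for it. Rgs16, a regulator of G-protein signalling, was at 0.44, 0.46 and 0.36 FPKM at 24 h and 2.42, 2.17 and 2.68 FPKM at 48 h in B-CKO cells and had CON means of 0.357 and 1.10 FPKM, and its change was larger in B-CKO cells by 0.63 (95% interval 0.44 to 0.82). Zfp990, a zinc finger gene, was at or under 0.16 FPKM in all B-CKO libraries of 24 h and 48 h. Hdac7, a histone deacetylase, was at 18.4, 17.8 and 19.4 FPKM at 24 h and 65.1, 65.5 and 64.3 FPKM at 48 h in B-CKO cells, with CON means of 22.5 and 60.3 FPKM. Its change was larger in B-CKO cells by 0.38 (95% interval 0.25 to 0.50).

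Several lists had somewhat different medians in the 2 genotypes, none with a member that passed the test of the difference. DNA replication genes had a median of -0.20 in B-CKO and -0.04 in CON cells, where 12 were higher and 8 lower. For 22 of the 39 members, the difference had an unadjusted p under 0.05, and the smallest adjusted p was 0.399. MHC class II genes had medians of 0.60 and 0.34, with 7 of 14 members at an unadjusted p under 0.05. Over all genes tested, 7.31% had such a p. Members of a list can vary together, so these counts are not separate observations. In B-CKO cells, 6 replication genes were higher without mouse 3, against 1 with all mice. Mitosis genes had medians of 1.06 and 1.18, ribosome biogenesis genes -0.94 and -0.81, and glycolysis genes 1.5 and 1.46. For single genes, the change in B-CKO minus that in CON cells was 0.29 (95% interval -0.28 to 0.85) for Prdm1, 0.62 (95% interval 0.29 to 0.95) for Ddit4 and -0.08 (95% interval -0.28 to 0.12) for Myc. These intervals are not adjusted for the number of genes, and an adjusted p above the threshold does not show that the genotypes changed alike.

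**Figure D5:**
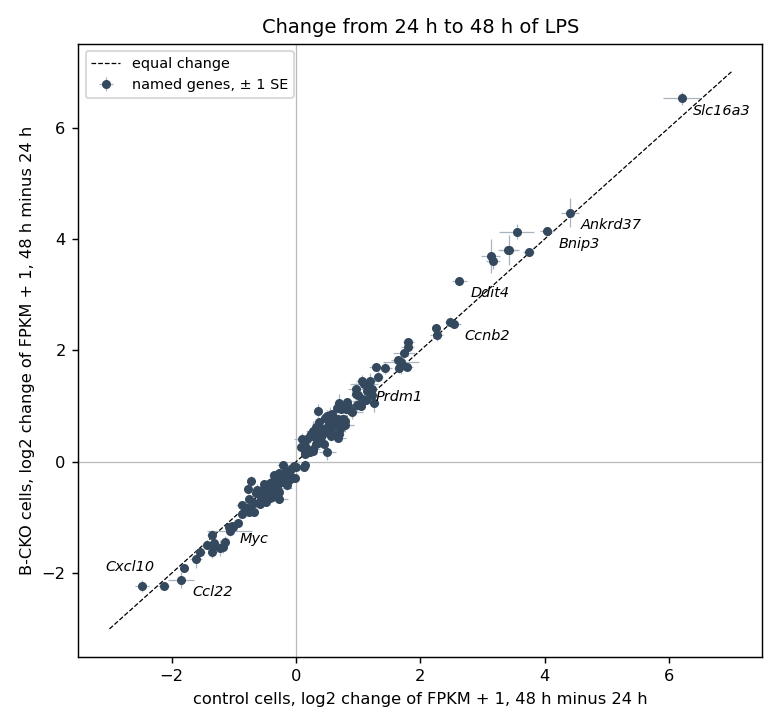
Log2 change of FPKM + 1 from 24 h to 48 h in B-CKO cells (vertical) against CON cells (horizontal) for the 209 named genes, with bars of 1 SE from limma and a dashed line of equal change. The points lie along the line from Cxcl10 at the lower left (-2.22 in B-CKO cells) to Slc16a3 at the upper right (6.53).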

How the data were processed

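Total RNA of splenic B cells was sequenced as paired-end reads (MGI2000 per the labels, HiSeq or Novaseq in the study's methods). The authors aligned reads to mm10 and deposited gene-level FPKM values with 2 decimals for all 18 libraries. The methods name Bowtie2, Cufflinks and RSEM, the submitters' processing notes add BWA, and versions are not given in the sources used here. Since FPKM are not counts, limma 3.58.1 (R 4.3.3; lmFit and eBayes with a trend) was run on log2(FPKM + 1) of the 6 libraries with no other filter, which understates the change of low genes. Genes with a Benjamini-Hochberg adjusted p under 0.05 were called, and all tests are two-sided. The 2 genotypes were compared in a fit of 12 libraries. Of 16545 IDs, 16512 matched a gene name.

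Members and lists were chosen with earlier results of these data known, and the lists of the HIF pathway and of fatty acid synthesis, the limma fit without a trend and the test against a 1.5-fold change were added after the values were seen. Genes named by rule were the 10 largest rises and 10 largest falls without overlap between time points (leaving out names that start with Gm and a digit or LOC or end with Rik), the 3 largest called rises and falls of each list, and 24 fixed genes. Other members were named after their values were seen, among them Slc2a1, Pfkl, Aldoa, Gapdh, Tpi1, Pgk1, Eno1, Ldha, Hk2, Hif1a, Hif1an, Vegfa, Ak4, Mzb1, Txndc5 and Polr1c. Ratios of means are of FPKM without a pseudocount. The methods give 1 mouse per replicate, and equal numbers were taken as the same mouse, which the labels do not state for the time points. Deviations of same-numbered libraries had r = 0.114, 0.182 and 0.118 across 9799 genes that averaged 1 FPKM or more (-0.162 to 0.0317 for other pairs), and 0.0925, 0.16 and 0.102 across all 15253 tested. Alternatives changed the pseudocount, low-value filter, scaling, libraries fitted, the block by mouse and single libraries. The limma scripts were tested on simulated data. Trac, Ighm, Igkc and Iglc1 were not analysed here, and 3 genes, one of them among the 10 largest rises, are not reported here and were left out of the lists.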

Additional observations from a re-analysis of the deposited data

How the results depend on the processing

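The numbers of higher and lower genes stayed within 1.5 times of 3307 and 3657 under other pseudocounts, filters, scalings and fits, except where a size of change was demanded or mouse 1 was left out. At least a 2-fold change left 382 and 129 genes, and a limma test against 1.5-fold, chosen after seeing the data, left 456 and 243. Leaving out replicates or single libraries gave 2127 to 3269 higher and 2021 to 3855 lower genes, the lowest in both cases without mouse 1. Rescaling to TPM moved the share of higher genes among called ones from 47.5% to 42.2%, and median ratio scaling to 51.2%. With the mouse as a block (paired fit), 3087 genes were higher and 3437 lower, 6329 of the 6964 called genes kept their call, and 7 named genes lost it (Pycr1, Rpa1, Chac1, Suz12, Bst2, Itgax and Bach2). No called named gene changed sign in any setting, and 136 of 204 kept their call in all. Uncalled log2 changes turned positive for Zbtb24 (0.013 without the 48 h library of mouse 2), Dnmt1 (0.071 without mouse 3, 0.035 without its 48 h library) and Uhrf1 (0.029 without mouse 3), and their lowest values on leaving out libraries were -0.138, -0.162 and -0.159. The cause was not tested. The difference between genotypes gave 0 genes in all alternatives run, with a smallest adjusted p of 0.0903 to 0.323. In a fit of all 18 libraries, 2580 genes were higher and 2808 lower, and 33 named genes lost their call, against 51 without mouse 1, 26 without mouse 2 and 13 without mouse 3. In that fit, 3 members were lower in the ER to Golgi list and 3 in the activation list, 2 among p53 targets and 1 among plasmablast effectors, and 2 one-carbon enzymes were higher. The number of reads behind each FPKM value is unknown, so no counting error is given. With 3 mice per group, p-values measure the spread between these mice only.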

Other observations

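Desaturases had the largest rises in a list of 16 genes of fatty acid synthesis and desaturation that was assembled after the values were seen, in which 10 members were higher and 2 lower (10 and 0 without mouse 1) with a median of 0.55. Fads2, which desaturates polyunsaturated fatty acids, was at 4.25, 5.12 and 6.05 FPKM at 24 h and 45.9, 42.3 and 42.3 FPKM at 48 h (log2 change 2.87 ± 0.11 (SE), adjusted p = 8.46e-06). Scd2, a stearoyl-CoA desaturase, was at 26.96, 24.7 and 33.6 FPKM at 24 h and 199, 199.6 and 199 FPKM at 48 h (log2 change 2.78 ± 0.10 (SE), adjusted p = 8.46e-06). Both rose in every mouse without overlap. Fasn, the fatty acid synthase, was at 60.3, 59.7 and 60.8 FPKM at 24 h and 43.9, 50.4 and 36.1 FPKM at 48 h (log2 change -0.48 ± 0.11 (SE), adjusted p = 0.0106), and Acaca, which makes its substrate, was not called (log2 change -0.11).

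Among death regulators of the BCL2 family, 7 of 18 were higher and 5 lower (3 and 5 without mouse 1, 4 and 4 in a fit of all 18 libraries). Bcl2l11, which encodes the killer BIM, was at 7.88, 8.30 and 8.81 FPKM at 24 h and 18, 20.4 and 19.02 FPKM at 48 h (log2 change 1.11 ± 0.06 (SE), adjusted p = 2.89e-05), and Bmf, another BH3-only gene, at 3.95, 3.5 and 2.63 FPKM at 24 h and 7.18, 7.24 and 7.08 FPKM at 48 h (log2 change 0.92 ± 0.12 (SE), adjusted p = 0.000794). The survival genes Bcl2a1a, Bcl2a1b and Bcl2a1d fell (log2 changes -0.66, -0.55 and -0.55), but these are near-identical copies whose reads the counting can split between them. Of 28 autophagy and lysosome genes, 13 were higher and 4 lower (13 and 7 after rescaling to TPM, 14 and 1 without mouse 1), led by Map1lc3a, a coat protein of autophagosomes, at 1.5, 0.77 and 1.38 FPKM at 24 h and 3.82, 3.52 and 4.96 FPKM at 48 h (log2 change 1.21 ± 0.16 (SE), adjusted p = 0.00101). Flt3, a cytokine receptor, was at 9.49, 8.87 and 8.72 FPKM at 24 h and 31.4, 31.7 and 31.9 FPKM at 48 h (log2 change 1.70 ± 0.04 (SE), adjusted p = 3.19e-06), and Cd2, an adhesion molecule, at 20.2, 19.97 and 22.6 FPKM at 24 h and 54.2, 51.5 and 73.8 FPKM at 48 h (log2 change 1.46 ± 0.13 (SE), adjusted p = 0.000177). Both rose in all 3 mice, while the T cell gene Cd3d was at 0.36, 0.31 and 0.42 FPKM at 24 h and 0.13, 0.22 and 0 FPKM at 48 h.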
